A study of Mus musculus with 24 samples.

Results

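CXC chemokines are small secreted proteins, 1 of them also membrane-bound, that draw leukocytes along a gradient, and macrophages are a source of many of them. CXCL9, CXCL10 and CXCL11 bind CXCR3 on activated T cells and NK cells and are classical products of interferon gamma signalling. CXCL1, CXCL2, CXCL3 and CXCL5 bind CXCR2 on neutrophils and are classical NF-kB targets. Described here are the 10 mouse genes of this family that were chosen by symbol from the 35770 named genes of the expression table: the CXCR3 ligand genes Cxcl9, Cxcl10 and Cxcl11, the neutrophil chemokine genes Cxcl1, Cxcl2, Cxcl3 and Cxcl5, and Cxcl14, Cxcl16 and Pf4. Of the 10 genes, 9 passed the filter of more than 1 unit of transcript abundance (TPM, which sums to the same total in every library) in at least 3 of 24 libraries and were tested, among 13661 genes in all, and Cxcl11 did not pass.

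The cells were bone marrow-derived macrophages (BMDMs) grown from C57BL/6 mice with M-CSF at 20 ng/mL. For 24 h they received control media or conditioned media (CM) from LL2, a line of mouse Lewis lung carcinoma cells, that was wild type (WT), KEAP1 KO or NRF2 KO. Each of these 4 media was given with vehicle or with CDDO-Me at 100 nM, a synthetic triterpenoid that activates NRF2, which makes 8 groups of 3 libraries. CM was collected after 48 h on the cancer cells and made up 75% of the culture with 25% fresh medium, and the control media had been kept without cells. KEAP1 is the protein that marks NRF2 for degradation, and both knockouts were made in the cancer cells, so all macrophages carried unedited Keap1 and Nfe2l2. Each knockout is named as 1 edited cancer line, and the sources used here do not say whether it is a single clone. A property of such a line and a property of its knockout cannot be told apart. The p-values measure the spread between these libraries, since the sources used here do not say whether replicates came from separate mice.

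TPM total nearly the same in every library, so the number of reads behind each value is unknown and no counting interval is given. Macrophage genes were high in every library, with a summed level of 14888 to 38321 TPM over 7 markers that included Csf1r, Adgre1 and Cd68. Marker genes of other cell types were also listed above 0, and whether such cells were present was not tested. The summed level of 8 fibroblast markers ran from 217 to 2669 TPM, that of 8 neutrophil markers from 11.1 to 73.2 TPM, and that of 7 platelet and megakaryocyte markers from 6.35 to 15.9 TPM. Endothelial markers (4 genes) summed to 4.18 to 66.6 TPM and epithelial or carcinoma markers (5 genes) to 0.214 to 9.23 TPM. Ifng, the interferon gamma gene, was listed at 0 in all libraries but 1, where it was at 0.0637 TPM. Libraries 3 of NRF2 KO CM/vehicle and NRF2 KO CM/CDDO-Me listed the fewest genes above 0, 15702 and 16299 against 17817 to 18993 in the others. In bulk RNA, fewer cells of a type and less RNA per cell cannot be told apart.

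Of the 10 genes, 8 lie in a pair of groups on chromosome 5 of GRCm39. Cxcl5 (90907186 to 90909483), Pf4 (90918479 to 90922110), Cxcl3 (90933962 to 90937459), Cxcl1 (91039094 to 91040974) and Cxcl2 (91051730 to 91053797) span 146.6 kb on the plus strand. Cxcl9 (92469206 to 92475945), Cxcl10 (92494497 to 92496748) and Cxcl11 (92507403 to 92513344) span 44.1 kb on the minus strand, 1415 kb further along. Cxcl16 lies on chromosome 11 (70344517 to 70352620) and Cxcl14 on chromosome 13 (56436352 to 56444603), both on the minus strand. Whole transcripts were measured, so no exon or UTR was quantified on its own. Some of these genes have transcript sequence that GENCODE transcripts of other genes also contain, counted on either strand. The authors estimated TPM on a GRCm39 cDNA set, for which the shares may differ. Of the 31-base words of the GENCODE transcripts of Cxcl16, 79.4% occurred also in transcripts of other genes, mostly Zmynd15 and Med11, and 42.7% of those of Cxcl11. For Cxcl5 the share was 24.2%. Cxcl2 and Cxcl3 shared words with each other (7.59% and 5.46%), and for Cxcl9, Cxcl1, Cxcl10, Cxcl14 and Pf4 the share was at most 4.47%.

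The sequences before the RefSeq starts of the 2 CXCR3 ligand genes that were abundant with CDDO-Me, and of 2 neutrophil chemokine genes, are given as examples of the promoters of each group. The RefSeq promoter table of GRCm38.p6 held 7 of the 10 genes, without Cxcl5, Cxcl11 and Cxcl16. The 250 bases before each start of that table were placed on GRCm39 by an exact match. Some of these starts lie inside the gene positions given above. The windows of Cxcl9, Cxcl1 and Cxcl2 reach a short way into the gene. Most of the Cxcl14 window and all of the Pf4 window (90920044 to 90920293) lie within it. Capitals mark matches, on either strand, to the kB motif, to an interferon-stimulated response element core (2 runs of GAAA with 2 bases between them), to a gamma-activated site (TTCNNNGAA) or to an antioxidant response element core (TGACNNNGC), the site that NRF2 binds.
Cxcl9 (chr5:92475939-92476188, minus strand): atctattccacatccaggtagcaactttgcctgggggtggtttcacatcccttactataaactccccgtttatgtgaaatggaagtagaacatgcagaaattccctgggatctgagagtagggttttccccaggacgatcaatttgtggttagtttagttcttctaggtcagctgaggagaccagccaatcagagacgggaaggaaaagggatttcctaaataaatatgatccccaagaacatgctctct
Cxcl10 (chr5:92496749-92496998, minus strand): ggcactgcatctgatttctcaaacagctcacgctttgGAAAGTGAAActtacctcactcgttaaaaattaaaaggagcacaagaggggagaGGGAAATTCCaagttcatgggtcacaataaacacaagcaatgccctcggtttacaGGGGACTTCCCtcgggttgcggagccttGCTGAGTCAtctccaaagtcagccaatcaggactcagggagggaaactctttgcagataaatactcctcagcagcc
Cxcl1 (chr5:91038854-91039103, plus strand): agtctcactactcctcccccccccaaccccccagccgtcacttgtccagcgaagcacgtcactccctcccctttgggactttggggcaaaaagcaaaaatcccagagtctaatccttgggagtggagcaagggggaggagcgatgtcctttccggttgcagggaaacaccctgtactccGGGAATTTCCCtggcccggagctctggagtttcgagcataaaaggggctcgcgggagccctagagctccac
Cxcl2 (chr5:91051508-91051757, plus strand): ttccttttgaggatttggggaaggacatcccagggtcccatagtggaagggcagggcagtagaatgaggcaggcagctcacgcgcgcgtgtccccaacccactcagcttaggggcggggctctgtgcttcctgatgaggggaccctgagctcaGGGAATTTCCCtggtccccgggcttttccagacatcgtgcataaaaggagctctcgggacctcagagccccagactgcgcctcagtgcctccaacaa

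The Cxcl10 sequence held 1 response element core at 213 to 204 bases before the start, 3 kB matches, 2 of them overlapping, and 1 antioxidant response element core. Among 32851 promoters of the same length, a kB match was found in 7.25%, the response element core in 2.98%, the gamma-activated site in 7.02% and the antioxidant response element core in 10.2%. Cxcl1 and Cxcl2 each held the run GGGAATTTCCC, which is 2 overlapping kB matches, and Cxcl3 held the same run. The Cxcl9 and Pf4 sequences had no match to these letters in this window. Cxcl14 held 1 response element core and the only gamma-activated site match of the 7 promoters. The antioxidant response element core was found in Cxcl10 alone among the 7 promoters. A match of letters is a description and not a binding site.

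With CDDO-Me, Cxcl9 and Cxcl10 rose from near 0 to 329 TPM or more in WT CM and KEAP1 KO CM, and stayed low in media and in NRF2 KO CM. Cxcl9 was at 1792, 1458 and 981 TPM in the 3 WT CM/CDDO-Me libraries and at 1614, 1366 and 701 TPM in the KEAP1 KO CM/CDDO-Me libraries. In the 18 other libraries it was at most 0.544 TPM. The 6 high libraries thus lay far above all others, and the WT CM and KEAP1 KO CM libraries overlapped with each other. On the log2(TPM + 1) scale, Cxcl9 rose by 10.46 (SE 0.24, limma adjusted p = 2.5e-17) with CDDO-Me in WT CM and by 10.20 (SE 0.24, limma adjusted p = 3.4e-17) in KEAP1 KO CM. In size these ranked 2 among 13661 genes in each comparison. The levels without CDDO-Me were 0.0583 ± 0.0303 TPM in WT CM and 0.0586 ± 0.0100 TPM in KEAP1 KO CM (SD, n = 3), so a fold in TPM would rest on values near 0 and is not given.

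Cxcl10 was at 361, 329 and 358 TPM in the WT CM/CDDO-Me libraries and at 1425, 465 and 490 TPM in the KEAP1 KO CM/CDDO-Me libraries. Without CDDO-Me it was at 0.108, 0.0727 and 0 TPM in WT CM and at 0.124, 0.176 and 0.289 TPM in KEAP1 KO CM. It rose by 8.49 on the log2 scale in WT CM (SE 0.32, limma adjusted p = 7.2e-14) and by 9.29 in KEAP1 KO CM (SE 0.32, limma adjusted p = 1.6e-14). Library 1 of KEAP1 KO CM/CDDO-Me lay well above the other two of its group, and without it the rise was 8.75. In NRF2 KO CM the order was the opposite: Cxcl10 was at 3.56, 2.05 and 2.39 TPM with vehicle and at 1.32, 0.873 and 1.5 TPM with CDDO-Me. That difference of -0.69 did not pass the threshold (SE 0.32, limma adjusted p = 0.21), nor did the one of -0.87 in media (SE 0.32, limma adjusted p = 0.13), where the values were 2.01, 0.946 and 2.01 TPM with vehicle and 0.0360, 0.665 and 0.595 TPM with CDDO-Me. In both media the 3 CDDO-Me libraries lay below the 3 vehicle libraries.

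Cxcl11, the third CXCR3 ligand gene, was low in every group. C57BL/6 mice are known to carry a frameshift in this gene. It was at 0.230, 0.239 and 0.442 TPM in WT CM/CDDO-Me and at 1.23, 0.394 and 0.328 TPM in KEAP1 KO CM/CDDO-Me, and was at most 0.0972 TPM in the 18 other libraries. These 6 libraries were the same that were high in Cxcl9 and Cxcl10, and no test was made. Within a library, the ratio of Cxcl9 to Cxcl10 ran from 2.74 to 4.96 in WT CM/CDDO-Me and from 1.13 to 2.94 in KEAP1 KO CM/CDDO-Me. Cxcl9 made up 64.3 to 73.2% of the summed TPM of the 10 chemokine genes in the first group and 46.5 to 64.2% in the second.

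**Figure D1:**
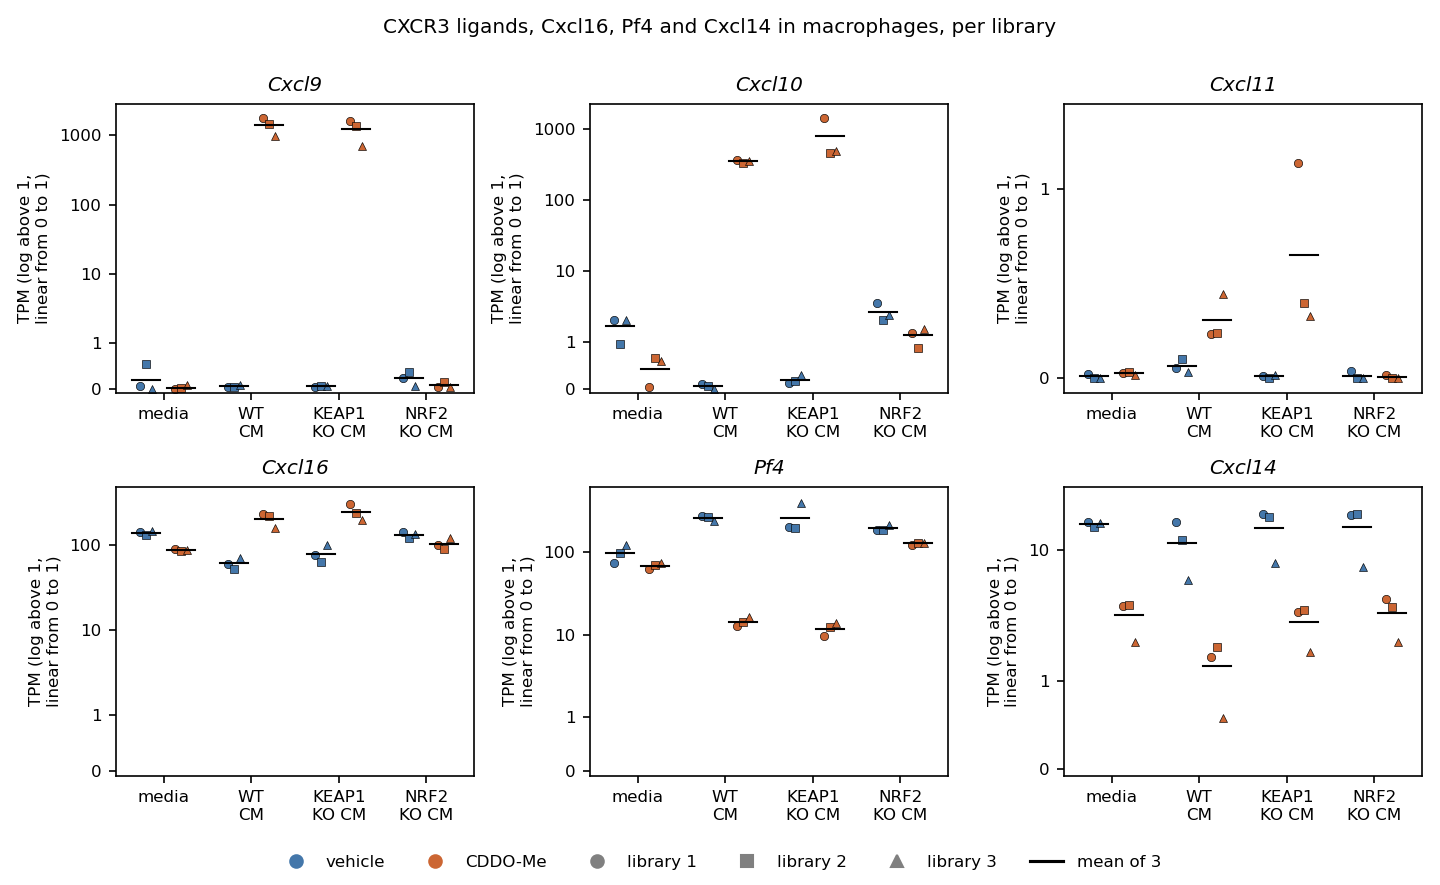
Level of 6 chemokine genes in TPM (linear from 0 to 1, logarithmic above) in each library, by medium, with vehicle (blue) or CDDO-Me (orange), marker shapes for library number and bars for the mean of 3. Cxcl9 and Cxcl10 are at 329 TPM or more in the 6 WT CM and KEAP1 KO CM libraries with CDDO-Me and at 3.56 TPM or less in the other 18, while Pf4 is at 16.3 TPM or less in the same 6 libraries.

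An interaction tested whether CDDO-Me acted differently in different media. For Cxcl9 the effect in WT CM exceeded that in media by 10.64 (SE 0.34, limma adjusted p = 1.1e-14) and that in NRF2 KO CM by 10.62 (SE 0.34, limma adjusted p = 1.1e-14). For Cxcl10 the same differences were 9.36 (SE 0.45, limma adjusted p = 7.5e-12) and 9.18 (SE 0.45, limma adjusted p = 9.6e-12). Both genes thus responded to CDDO-Me in WT CM differently from how they did in media and in NRF2 KO CM. KEAP1 KO CM exceeded media by 10.38 for Cxcl9 (limma adjusted p = 1.4e-14) and by 10.16 for Cxcl10 (limma adjusted p = 2.2e-12), and was not tested against NRF2 KO CM in this way. Between KEAP1 KO CM and WT CM, the effect differed by -0.25 for Cxcl9 (95% interval -0.96 to 0.46) and by 0.80 for Cxcl10 (95% interval -0.14 to 1.74), both with a limma adjusted p of 1. The interaction contrasts share the vehicle and CDDO-Me libraries of their media, so they are not independent of each other.

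Genes of the interferon gamma pathway moved in the same libraries. Of 8 listed genes 7 were tested, and 4 rose with CDDO-Me in WT CM and in KEAP1 KO CM: Irf1, Irf8, Socs1 and Jak2. Of all genes, 27.8% and 28.8% were called in these comparisons, in either direction. Without KEAP1 KO CM/CDDO-Me library 1 the Jak2 call was lost there (0.31, limma adjusted p = 0.13). None of the 7 was called with CDDO-Me in media or in NRF2 KO CM, where 6.01% and 9.77% of all genes were called. The median difference of the list was 0.36 in WT CM and 0.40 in KEAP1 KO CM, against -0.028 and -0.018 over all genes tested. Irf1, the gene of an interferon-induced transcription factor, was at 890, 915 and 986 TPM in WT CM/CDDO-Me against 74.6, 56.8 and 112 TPM in WT CM/vehicle, a rise of 3.67 on the log2 scale (SE 0.25, limma adjusted p = 8.5e-10). Irf8, a transcription factor gene of myeloid cells, rose by 2.34 (SE 0.19, limma adjusted p = 1.3e-08). Ifngr1, a chain of the interferon gamma receptor, differed by -0.41 in WT CM (SE 0.17, limma adjusted p = 0.093), and Ifngr2 and Jak1 were not called either. Socs1, a feedback inhibitor of JAK kinases, and Jak2 were already higher in WT CM than in media with vehicle, by 3.71 (SE 0.21, limma adjusted p = 2.4e-10) and 1.09 (SE 0.13, limma adjusted p = 9.9e-06), while Cxcl10 was lower there. Of 5 dendritic cell markers 3 were tested. Clec9a and Xcr1 rose with CDDO-Me in WT CM and KEAP1 KO CM, and Zbtb46 differed by -0.18 and -0.23 and was not called. The summed level of the 5 was 100 to 127 TPM in WT CM/CDDO-Me, 46.9 to 86.1 TPM in KEAP1 KO CM/CDDO-Me and at most 1.94 TPM elsewhere. Flt3 was at most 0.239 TPM and Ccr7 at most 0.498 TPM in every library, and the part of such cells in the levels of Cxcl9 and Cxcl10 was not tested.

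Cxcl16 encodes a chemokine made as a transmembrane protein that binds CXCR6 on T and NK cells, and it was the member with the highest level in media. It fell with WT CM and KEAP1 KO CM under vehicle and rose above every other group with CDDO-Me in the same media. With vehicle it was at 143, 131 and 146 TPM in media, at 60.1, 52.5 and 70.0 TPM in WT CM, at 76.0, 62.6 and 99.2 TPM in KEAP1 KO CM and at 142, 120 and 135 TPM in NRF2 KO CM. With CDDO-Me it was at 89.3, 85.1 and 87.8 TPM in media, at 230, 220 and 158 TPM in WT CM, at 305, 241 and 197 TPM in KEAP1 KO CM and at 102, 90.7 and 121 TPM in NRF2 KO CM. By mean level the order was KEAP1 KO CM/CDDO-Me, WT CM/CDDO-Me, media/vehicle, NRF2 KO CM/vehicle, NRF2 KO CM/CDDO-Me, media/CDDO-Me, KEAP1 KO CM/vehicle and WT CM/vehicle, and neighbours in it overlapped except for WT CM/CDDO-Me above media/vehicle and NRF2 KO CM/CDDO-Me above media/CDDO-Me. In WT CM, CDDO-Me raised Cxcl16 3.33-fold, by 1.82 on the log2 scale (SE 0.21, limma adjusted p = 1.1e-06), and in KEAP1 KO CM 3.13-fold, by 1.81 (SE 0.21, limma adjusted p = 1.2e-06). In NRF2 KO CM the difference was -0.34 (limma adjusted p = 0.40). In media it was -0.67, with a limma adjusted p of 0.069, and 0.027 with the replicate number as a block. CDDO-Me thus moved Cxcl16 up in the 2 media in which CM had moved it down. The effect in WT CM exceeded that in media by 2.49 (SE 0.30, limma adjusted p = 4.1e-06) and that in NRF2 KO CM by 2.16 (SE 0.30, limma adjusted p = 2.4e-05). With vehicle, Cxcl16 was lower than in media by -1.13 in WT CM (SE 0.21, limma adjusted p = 0.0014) and by -0.85 in KEAP1 KO CM (SE 0.21, limma adjusted p = 0.014). The KEAP1 KO CM value was -0.67 (limma adjusted p = 0.081) without KEAP1 KO CM/vehicle library 2, -0.83 (0.057) without media/vehicle library 1 and -0.80 (0.058) without media/vehicle library 3. The overlapping gene Zmynd15 was at 1.83 to 8.68 TPM and Med11 at 26.0 to 44.6 TPM over the 24 libraries, and how the shared sequence was divided between the 3 genes was not tested.

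Pf4 encodes platelet factor 4, a chemokine of platelet granules that macrophages also express, and in WT CM and KEAP1 KO CM it moved opposite to Cxcl16. These 2 CM raised it with vehicle, and CDDO-Me lowered it in both. With vehicle it was at 74.6, 98.0 and 123 TPM in media, at 276, 269 and 239 TPM in WT CM, at 206, 195 and 394 TPM in KEAP1 KO CM and at 189, 185 and 213 TPM in NRF2 KO CM. With CDDO-Me it was at 62.9, 70.9 and 73.7 TPM in media, at 12.6, 14.2 and 16.3 TPM in WT CM, at 9.47, 12.3 and 13.7 TPM in KEAP1 KO CM and at 124, 131 and 131 TPM in NRF2 KO CM. The vehicle and CDDO-Me libraries did not overlap in any of the 4 media. In WT CM the mean was 18.2-fold lower with CDDO-Me, a log2 difference of -3.99 (SE 0.23, limma adjusted p = 6.1e-11), and in KEAP1 KO CM it was 22.5-fold lower, a difference of -4.15 (SE 0.23, limma adjusted p = 3.3e-11). In media the difference was -0.47 (SE 0.23, limma adjusted p = 0.33). In NRF2 KO CM it was -0.60 (SE 0.23), with a limma adjusted p of 0.13, and 0.020 with the replicate number as a block. The effect in WT CM was lower than in media by -3.52 (SE 0.33, limma adjusted p = 1.4e-07) and lower than in NRF2 KO CM by -3.40 (SE 0.33, limma adjusted p = 2.6e-07). The fall was thus larger in WT CM than in either medium in which Cxcl9 stayed low. With vehicle, Pf4 was 2.65-fold higher in WT CM than in media, by 1.49 (SE 0.23, limma adjusted p = 2.5e-04), and 2.69-fold higher in KEAP1 KO CM, by 1.36 (SE 0.23, limma adjusted p = 5.6e-04). The NRF2 KO CM libraries also lay above the media libraries, with a difference of 1.04 (SE 0.23), and this did not pass (limma adjusted p = 0.38). The platelet and megakaryocyte markers were at 6.35 to 12.4 TPM in sum with CDDO-Me in KEAP1 KO CM and WT CM and at 9.78 to 15.9 TPM in the same media with vehicle. Gp9, which defines platelets, was at most 0.592 TPM in every library.

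Cxcl14 encodes a homeostatic chemokine best known from epithelia and fibroblasts, and it was the only one of the 9 tested chemokine genes whose fall with CDDO-Me passed the test in all 4 media. In media it was at 16.3, 15.1 and 16.0 TPM with vehicle and at 3.75, 3.83 and 2.00 TPM with CDDO-Me, a log2 difference of -2.02 (SE 0.36, limma adjusted p = 0.0011). Every CDDO-Me library lay below every vehicle library. In WT CM it was at 16.2, 11.9 and 5.95 TPM against 1.52, 1.81 and 0.582 TPM, a difference of -2.31 (SE 0.36, limma adjusted p = 3.9e-05). These were falls of 4.94-fold and 8.71-fold in mean TPM. In KEAP1 KO CM it was at 18.7, 17.8 and 7.98 TPM against 3.36, 3.48 and 1.68 TPM (-1.86, SE 0.36, limma adjusted p = 3.9e-04). In NRF2 KO CM it was at 18.4, 19.0 and 7.41 TPM against 4.23, 3.66 and 1.98 TPM (-1.82, SE 0.36, limma adjusted p = 0.0018). The NRF2 KO CM call was lost when its 2 groups were fitted alone (-1.81, limma adjusted p = 0.084). The vehicle and CDDO-Me libraries did not overlap in any medium, and the groups of the 4 media overlapped under vehicle. None of the 5 interaction contrasts called Cxcl14, and CM against media did not call it with vehicle. Library 3 was lowest in 7 of the 8 groups. The fibroblast marker sum was lowest in library 3 of all 8 groups, and it was 1084 to 1728 TPM in media/vehicle and 1038 to 2669 TPM in media/CDDO-Me, 643 to 1231 TPM in WT CM/vehicle and 253 to 683 TPM in WT CM/CDDO-Me. In KEAP1 KO CM the fibroblast sum was 939 to 1707 TPM with vehicle and 217 to 912 TPM with CDDO-Me. In NRF2 KO CM it was 840 to 2593 TPM with vehicle and 537 to 1980 TPM with CDDO-Me. The part of fibroblasts in the level of Cxcl14 was not tested.

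**Figure D2:**
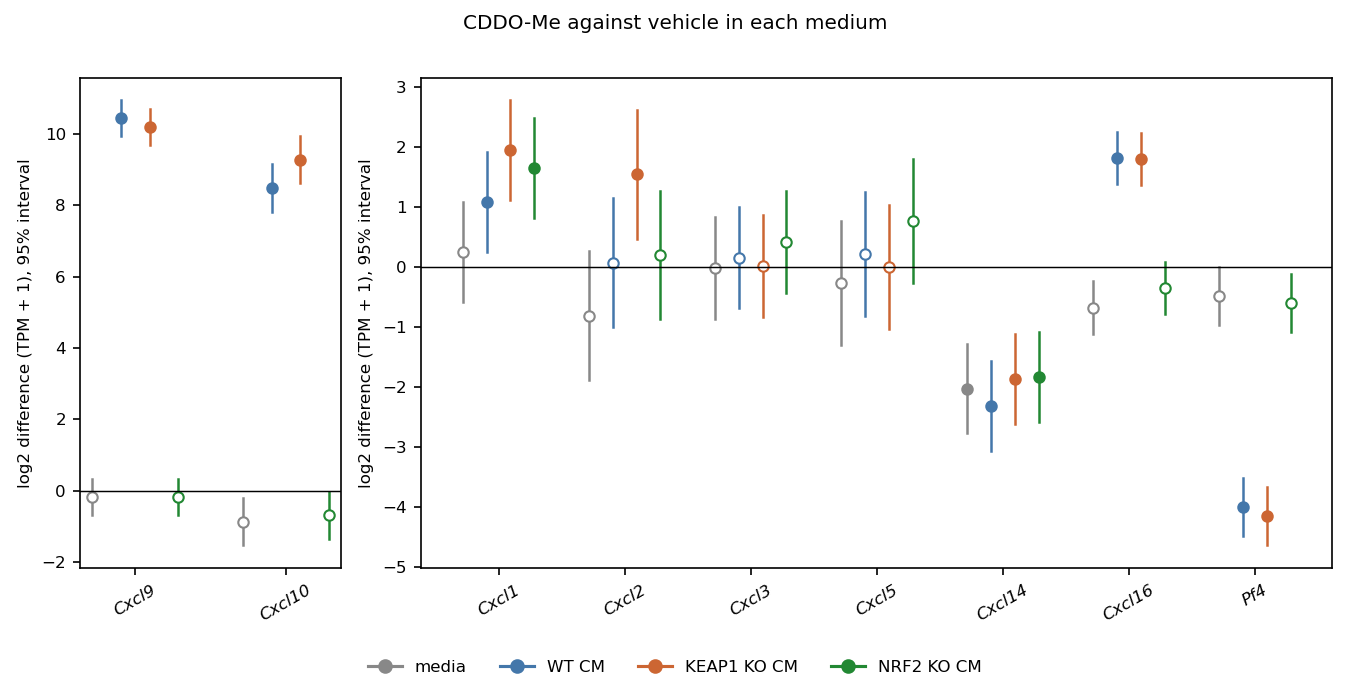
Difference of CDDO-Me against vehicle on the log2(TPM + 1) scale in each of 4 media for the 9 tested chemokine genes, with unadjusted 95% intervals and filled points for a limma adjusted p under 0.05; the left panel has its own scale. Cxcl9, Cxcl10, Cxcl16 and Pf4 depart from 0 in WT CM and KEAP1 KO CM, and Cxcl14 lies between -1.82 and -2.31 in all 4 media.

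Of the neutrophil chemokine genes, Cxcl1, Cxcl2 and Cxcl3 were at low levels and Cxcl5 was higher, and several of their calls were lost when 1 library was left out. Cxcl1 was called higher with CDDO-Me in the 3 CM and was not called in media. Tested against the effect in media, the effects in WT CM and in NRF2 KO CM were not called different. It was at 2.05, 2.22 and 2.28 TPM in WT CM/vehicle and at 11.0, 4.35 and 3.01 TPM in WT CM/CDDO-Me. In KEAP1 KO CM it was at 4.44, 2.43 and 3.75 TPM with vehicle and at 33.9, 11.6 and 7.64 TPM with CDDO-Me. In NRF2 KO CM it was at 2.77, 2.45 and 1.70 TPM with vehicle and at 11.2, 7.83 and 9.24 TPM with CDDO-Me. Vehicle and CDDO-Me libraries did not overlap in any of these 3 media, whereas in media they did, at 1.63, 1.75 and 1.47 TPM against 2.80, 1.61 and 2.07 TPM. The log2 differences were 1.96 in KEAP1 KO CM (SE 0.40, limma adjusted p = 7.0e-04), 1.66 in NRF2 KO CM (SE 0.40, limma adjusted p = 0.0098) and 1.09 in WT CM (SE 0.40, limma adjusted p = 0.047). The WT CM call was lost in 5 of 6 fits with 1 library left out, and without WT CM/CDDO-Me library 1 the difference was 0.62 (limma adjusted p = 0.30). It was also lost without WT CM/CDDO-Me library 2 (limma adjusted p = 0.055) and without each of the 3 WT CM/vehicle libraries (limma adjusted p from 0.084 to 0.11). The call in NRF2 KO CM was lost without the 2 NRF2 KO CM libraries that list few genes, at a limma adjusted p of 0.067. The effect in KEAP1 KO CM exceeded that in media by 1.70 (SE 0.56, limma adjusted p = 0.049), and this call was lost in 10 of 12 fits with 1 library left out, with 1.10 (limma adjusted p = 0.13) without KEAP1 KO CM/CDDO-Me library 1.

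The summed neutrophil markers were higher with CDDO-Me in these groups, at 33.1 to 73.2 TPM against 11.1 to 34.4 TPM with vehicle in the 3 CM. In media they were at 31.4 to 48.6 TPM against 14.3 to 25.9 TPM, without a call for Cxcl1. Ly6g, a defining marker, was at most 0.989 TPM in every library. Of the tested neutrophil markers S100a8 alone was called, higher by 2.17 in WT CM, 2.55 in KEAP1 KO CM and 1.77 in NRF2 KO CM. S100a9, Camp and Ltf were not called with CDDO-Me in any medium.

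Cxcl2 was at 11.0 TPM in KEAP1 KO CM/CDDO-Me library 1 and at 0.850 and 0.914 TPM in the other two libraries of that group, against 0.346, 0.359 and 0.107 TPM with vehicle. The rise of 1.55 passed the test (SE 0.51, limma adjusted p = 0.027). It rested on that library: without it the difference was 0.64 (limma adjusted p = 0.20), and without any 1 of the 3 KEAP1 KO CM/vehicle libraries the limma adjusted p was 0.055 to 0.078. The larger effect in KEAP1 KO CM than in media (2.35, SE 0.72, limma adjusted p = 0.032) was lost in 7 of 12 such fits, at 2.06 to 2.43 (limma adjusted p from 0.052 to 0.091). With vehicle, Cxcl2 was at 1.28, 0.891 and 2.77 TPM in media and at 3.91, 0.857 and 2.38 TPM in NRF2 KO CM, above the 0.284, 0.214 and 0.227 TPM of WT CM, and none of these differences passed. That of WT CM from NRF2 KO CM was -1.33 (SE 0.51, limma adjusted p = 0.10), and it passed with a pseudocount of 0.1 (-2.61, limma adjusted p = 0.033), with array weights (limma adjusted p = 0.025) and without NRF2 KO CM/vehicle library 2 (limma adjusted p = 0.042). In WT CM with CDDO-Me it was at 0.529, 0.131 and 0.238 TPM, in media with CDDO-Me at 0.318, 0.346 and 0.653 TPM, and in NRF2 KO CM with CDDO-Me at 2.66, 4.00 and 1.68 TPM.

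Cxcl3 was above 1 TPM in 4 libraries only. With vehicle it was at 2.30, 1.54 and 0.849 TPM in KEAP1 KO CM, above every library of media (0.114, 0.0957 and 0.123 TPM), WT CM (0.486, 0.167 and 0.120 TPM) and NRF2 KO CM (0.368, 0.299 and 0 TPM). These differences did not pass in the 24-library fit, at 1.13 against media (limma adjusted p = 0.10) and 0.96 against WT CM (limma adjusted p = 1). In KEAP1 KO CM/CDDO-Me it was at 5.08, 0.929 and 0.135 TPM.

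Cxcl5 was the most abundant of the neutrophil chemokine genes in every group. It was at 8.53, 5.88 and 8.04 TPM in media/vehicle and at 39.3, 38.1 and 19.8 TPM in KEAP1 KO CM/vehicle, a difference of 1.92 (SE 0.49, limma adjusted p = 0.018). This call was lost without KEAP1 KO CM/vehicle library 1 (1.74, limma adjusted p = 0.090), without KEAP1 KO CM/vehicle library 2 (1.79, limma adjusted p = 0.080) and without media/vehicle library 2 (1.76, limma adjusted p = 0.080). In WT CM/vehicle it was at 22.8, 18.9 and 9.65 TPM and in NRF2 KO CM/vehicle at 24.6, 13.9 and 25.9 TPM, all above the media libraries, with limma adjusted p of 0.25 and 0.40. The WT CM difference passed with the compared groups alone (limma adjusted p = 0.045) and with array weights (limma adjusted p = 0.0067). With CDDO-Me it was called in none of the 4 media: the differences ran from -0.26 to 0.77, the widest interval reaching 1.80 in NRF2 KO CM. There Cxcl5 was at 28.0 to 46.9 TPM with CDDO-Me, above the 13.9 to 25.9 TPM with vehicle. In the other media the libraries of the treatments overlapped. The Cxcl5 levels with CDDO-Me were spread from 7.49 to 36.4 TPM in WT CM and from 13.8 to 58.5 TPM in KEAP1 KO CM. In both groups library 3 was lowest, and the fibroblast marker sum was also lowest in library 3, at 253 and 217 TPM; the part of fibroblasts in Cxcl5 was not tested.

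**Figure D3:**
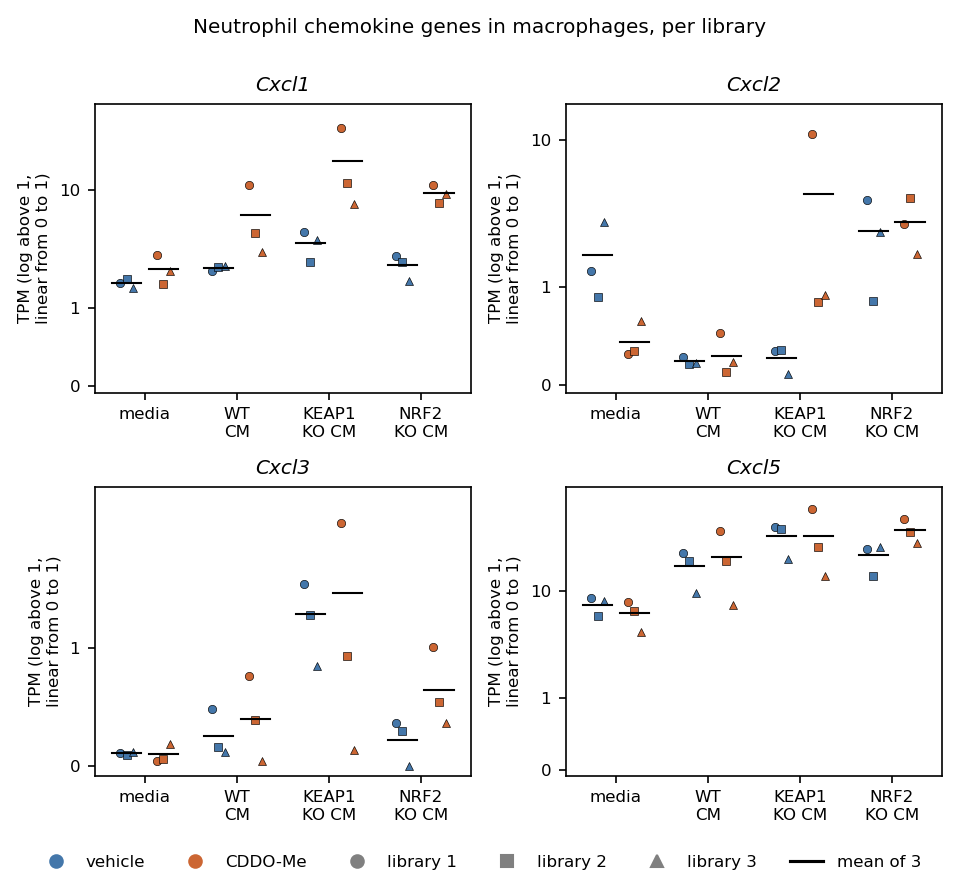
Level of the 4 neutrophil chemokine genes in TPM (linear from 0 to 1, logarithmic above) in each library, by medium, with vehicle (blue) or CDDO-Me (orange), marker shapes for library number and bars for the mean of 3. KEAP1 KO CM/CDDO-Me library 1 is the highest of its group for all 4 genes, at 33.9 TPM for Cxcl1, 11.0 TPM for Cxcl2, 5.08 TPM for Cxcl3 and 58.5 TPM for Cxcl5.

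Of 11 genes of the NF-kB pathway and of mRNA decay, all tested, 7 rose and 1 fell with CDDO-Me in KEAP1 KO CM, 3 rose and 1 fell in WT CM, 1 rose in NRF2 KO CM and 2 fell in media. Of all genes, 28.8%, 27.8%, 9.77% and 6.01% were called in these comparisons, so the shares in WT CM and NRF2 KO CM were near those of all genes. The medians were 0.88, 0.24, 0.049 and -0.14, against -0.018, -0.028, -0.0066 and -0.014 over all genes. The KEAP1 KO CM values rested in part on CDDO-Me library 1, without which 4 rose and 1 fell and the median was 0.44. Nfkbia, which encodes an inhibitor of NF-kB, was at 180, 61.0 and 59.4 TPM in KEAP1 KO CM/CDDO-Me and rose by 1.00 (SE 0.30, limma adjusted p = 0.015), and the rise was 0.47 (limma adjusted p = 0.10) without that library. The calls of Relb and Tnfaip3 were also lost without it, at 0.43 (limma adjusted p = 0.33) and 0.44 (limma adjusted p = 0.15). Rela and Nfkb1, which encode NF-kB subunits, differed by 0.42 and 0.25 and were not called (limma adjusted p = 0.093 and 0.099). Tnf, a cytokine gene induced by NF-kB, rose by 3.57 in KEAP1 KO CM (SE 0.24, limma adjusted p = 6.5e-10) and by 3.13 in WT CM (SE 0.24, limma adjusted p = 4.7e-09). Il1b, the interleukin 1 beta gene, rose by 4.32 in KEAP1 KO CM (SE 0.69, limma adjusted p = 5.7e-05) and by 2.37 in NRF2 KO CM (SE 0.69, limma adjusted p = 0.034), the 2 media in which the rise of Cxcl1 was largest. In WT CM Il1b differed by 1.84 (SE 0.69) and narrowly missed the threshold (limma adjusted p = 0.055). Zfp36, whose protein speeds the decay of cytokine mRNAs, rose by 0.96 in KEAP1 KO CM (SE 0.17, limma adjusted p = 2.0e-04). Il1a fell by 0.52 on the log2 scale in KEAP1 KO CM (limma adjusted p = 0.036). It differed by -0.89 in media (limma adjusted p = 0.0036) and by -0.78 in WT CM (limma adjusted p = 0.0024). In NRF2 KO CM the difference was -0.36 and not called (limma adjusted p = 0.28).

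WT CM against media and KEAP1 KO CM against media called a larger share of the chemokine genes than of all genes. WT CM against media called 3 of the 9, with Pf4 higher and Cxcl10 and Cxcl16 lower, where 7.34% of all genes were called. KEAP1 KO CM against media called 4, the same 3 in the same directions and Cxcl5, where 7.96% of all genes were called. NRF2 KO CM against media called 0 of the 9 by limma, where 0.00732% of all genes were called, and 2, Cxcl5 and Pf4, had an unadjusted p under 0.05. KEAP1 KO CM against WT CM called 0, where 0% of all genes were called, and 1, Cxcl3, had an unadjusted p under 0.05. WT CM called 2 genes against NRF2 KO CM, Cxcl10 and Cxcl16, both lower, where 10.7% of all genes were called. KEAP1 KO CM called the same 2 against NRF2 KO CM, where 8.82% were called. The comparisons with media share the media/vehicle libraries, and those with NRF2 KO CM share the NRF2 KO CM/vehicle libraries.

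Cxcl10 was the lowest of the called genes in level under vehicle. Its difference from media was -1.26 in WT CM (SE 0.32, limma adjusted p = 0.017) and -1.10 in KEAP1 KO CM (SE 0.32, limma adjusted p = 0.037). The WT CM call was lost without media/vehicle library 1 or 3 or WT CM/vehicle library 2 or 3 (limma adjusted p from 0.051 to 0.086), and the KEAP1 KO CM call in 5 of 6 such fits, all but that without media/vehicle library 2 (limma adjusted p from 0.067 to 0.15). Against NRF2 KO CM it was lower by -1.75 in WT CM (SE 0.32, limma adjusted p = 0.0012) and by -1.59 in KEAP1 KO CM (SE 0.32, limma adjusted p = 0.0029), and these calls were kept with any 1 library left out. Cxcl16 was lower than in NRF2 KO CM by -1.08 in WT CM (SE 0.21, limma adjusted p = 0.0021) and by -0.79 in KEAP1 KO CM (SE 0.21, limma adjusted p = 0.022). The latter was lost without KEAP1 KO CM/vehicle library 1 (-0.79, limma adjusted p = 0.058), KEAP1 KO CM/vehicle library 2 (-0.62, limma adjusted p = 0.10) or NRF2 KO CM/vehicle library 3 (-0.70, limma adjusted p = 0.080). The summed level of 7 T and NK cell markers was also lower in these 2 groups, at 5.14 to 7.64 TPM against 12.8 to 17.0 TPM in media/vehicle and NRF2 KO CM/vehicle. Most of it was Cd4, Cd3e was at most 0.19 TPM, and the part of such cells in Cxcl10 and Cxcl16 was not tested. Both Cxcl16 calls against NRF2 KO CM were also lost when the compared groups were fitted alone (limma adjusted p = 0.056 and 0.24).

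**Figure D4:**
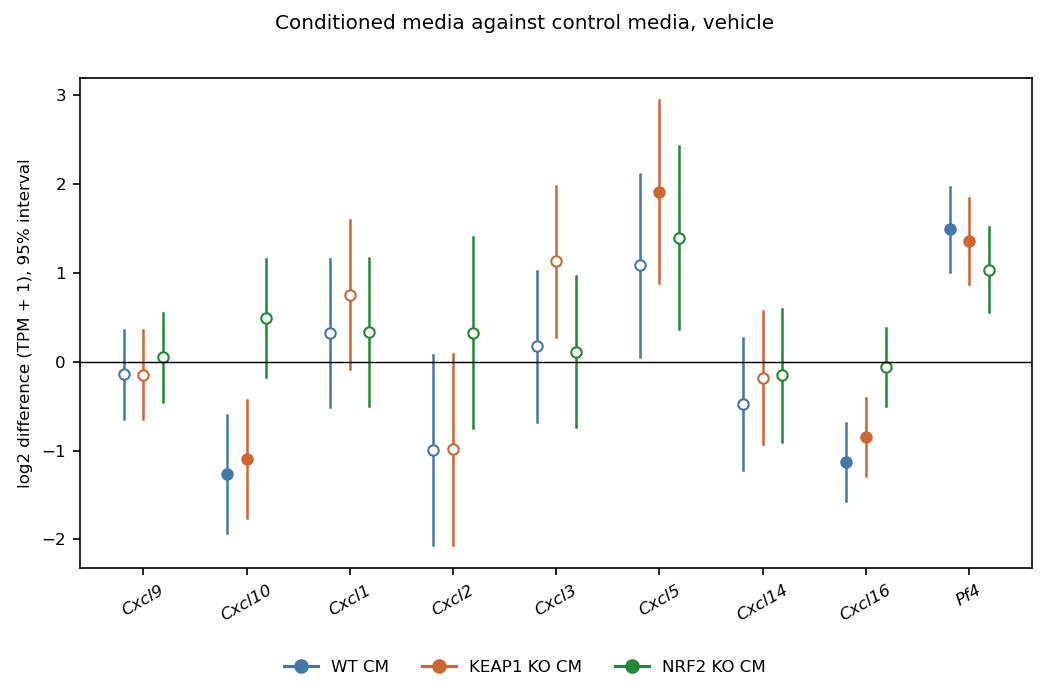
Difference of each CM against control media with vehicle on the log2(TPM + 1) scale for the 9 tested chemokine genes, with unadjusted 95% intervals and filled points for a limma adjusted p under 0.05. Cxcl10 and Cxcl16 are called below 0 with WT CM and KEAP1 KO CM, Cxcl16 is at -0.054 with NRF2 KO CM and not called, and Pf4 is at 1.49, 1.36 and 1.04 with the 3 CM.

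With CDDO-Me, most of the calls among the chemokine genes were in WT CM and KEAP1 KO CM. In WT CM 6 of the 9 were called, where 27.8% of all genes were called, with Cxcl9, Cxcl10, Cxcl1 and Cxcl16 higher and Cxcl14 and Pf4 lower. In KEAP1 KO CM 7 were called, where 28.8% of all genes were called, and Cxcl2 was added to the same 6. In media 1 gene was called, Cxcl14, where 6.01% of all genes were called. In NRF2 KO CM 2 were called, Cxcl1 and Cxcl14, where 9.77% were called. The interaction of WT CM against media called 4 (Cxcl9, Cxcl10, Cxcl16 and Pf4) where 15% of all genes were called, and that of WT CM against NRF2 KO CM called the same 4 where 13.3% were called. KEAP1 KO CM against media called 6, these and Cxcl1 and Cxcl2, where 14.7% were called. The interaction of NRF2 KO CM against media called 0 of the 9 by limma, where 0% of all genes were called, and 1, Cxcl1, had an unadjusted p under 0.05. The interaction of KEAP1 KO CM against WT CM called 0 by limma, where 0% of all genes were called, and 0 had an unadjusted p under 0.05.

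Of 8 CXC receptor genes 3 passed the filter, Cxcr3, Cxcr4 and Ackr3. Cxcr4, the receptor of CXCL12, was at 60.3, 49.2 and 104 TPM in WT CM/vehicle and at 10.8, 8.94 and 13.0 TPM in WT CM/CDDO-Me, a fall of -2.44 (SE 0.34, limma adjusted p = 1.3e-05). In KEAP1 KO CM it fell by 2.27 on the log2 scale (SE 0.34, limma adjusted p = 2.8e-05). Cxcr3, the receptor of CXCL9 and CXCL10, was at 2.46 to 6.86 TPM over all libraries and was not called in any comparison. Ackr3, a scavenger receptor of CXCL12, was at most 4.37 TPM and was lower with CDDO-Me in NRF2 KO CM by -1.36 (limma adjusted p = 0.012), in KEAP1 KO CM by -1.04 (limma adjusted p = 0.024) and in WT CM by -0.92 (limma adjusted p = 0.047). Of 5 other CXC ligand genes 2 were tested, Cxcl12 and Ppbp. Cxcl12 was at 201, 302 and 56.1 TPM in KEAP1 KO CM/vehicle and at 34.9, 39.1 and 4.02 TPM with CDDO-Me (-2.81, SE 0.99, limma adjusted p = 0.039), the only call of the pair. The difference of Cxcl12 had the same direction and a similar size in the other media and was not called there. It was -1.96 in media (limma adjusted p = 0.36), -2.27 in WT CM (limma adjusted p = 0.10) and -2.46 in NRF2 KO CM (limma adjusted p = 0.15). Cxcl12 was lowest in library 3 of all 8 groups, as was the fibroblast marker sum.

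Among 8 genes of chemokine processing 7 were tested, and with CDDO-Me 2 rose in each medium and 2 fell in WT CM and in KEAP1 KO CM. Of all genes, 6.01% were called in media, 27.8% in WT CM, 28.8% in KEAP1 KO CM and 9.77% in NRF2 KO CM. Mmp8, the neutrophil collagenase gene, rose in all 4 media, by 4.29 in media (SE 0.71, limma adjusted p = 5.5e-04), 2.33 in WT CM (SE 0.71, limma adjusted p = 0.017), 3.47 in KEAP1 KO CM (SE 0.71, limma adjusted p = 6.8e-04) and 5.82 in NRF2 KO CM (SE 0.71, limma adjusted p = 1.4e-05). The neutrophil marker sum was also higher with CDDO-Me in these media, and the part of such cells in Mmp8 was not tested. Mmp12, the macrophage elastase that trims CXC chemokines, rose with CDDO-Me in media by 1.48 (SE 0.30, limma adjusted p = 0.0036) and in NRF2 KO CM by 1.32 (SE 0.30, limma adjusted p = 0.0064), and fell in WT CM, with a difference of -2.84 (SE 0.30, limma adjusted p = 3.4e-07), and in KEAP1 KO CM, with -1.37 (SE 0.30, limma adjusted p = 0.0014). Its direction was thus the reverse of that of Cxcl9 in WT CM and KEAP1 KO CM. Adam17, a protease that releases membrane-bound proteins, was lower in WT CM than in media with vehicle by -0.52 (SE 0.11, limma adjusted p = 0.0041). In KEAP1 KO CM it was lower by -0.60 (SE 0.11, limma adjusted p = 9.8e-04). It rose with CDDO-Me in KEAP1 KO CM by 0.46 (SE 0.11, limma adjusted p = 0.0023) and in WT CM by 0.29 (SE 0.11, limma adjusted p = 0.048). Mmp14, a membrane-bound metalloproteinase gene, differed by -0.13 to 0.00062 with CDDO-Me in the 4 media and was not called. Adam10, which cleaves CXCL16, was at 56.3 to 97.6 TPM and differed by -0.22 in KEAP1 KO CM with CDDO-Me (limma adjusted p = 0.32). Mmp9 was lower with CDDO-Me in WT CM (-1.27, SE 0.26, limma adjusted p = 7.2e-04) and in KEAP1 KO CM (-1.10, SE 0.26, limma adjusted p = 0.0024).

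The genes most like each chemokine over the 24 libraries, by Pearson's r of log2 values over all tested genes, differed between the groups of chemokines. They included Igtp and Serpina3f for Cxcl9 (r of 0.997 and 0.996) and were Slco3a1, Gm4841 and Cd69 for Cxcl10 (0.986 to 0.988), and Il6, Il1b and Sod2 for Cxcl1 (0.889 to 0.936). For Cxcl16 they were Lyn, Mertk and Tifa (0.937 to 0.939), for Pf4 Atp2a3, Add3 and Pgap6 (0.949 to 0.958), and for Cxcl14 Vegfb, Pimreg and Iqgap3 (0.931 to 0.944). The r for Cxcl2, Cxcl3 and Cxcl5 was at most 0.875. These values are a description, since the libraries fall into clusters by treatment and share their scaling, and for Cxcl9 and Cxcl10 r mostly separates 6 libraries from 18.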

How the data were processed

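The authors sequenced poly-A RNA from BMDMs and estimated transcript abundance with Kallisto on GRCm39. They deposited TPM per gene name for 24 libraries, 3 in each of 8 groups. The file is named as gene counts, but every library has the same total, so the values were treated as TPM and the number of reads is unknown. A line without a gene name (199 to 635 TPM per library) was left out. TPM were scaled by trimmed means of M values (trims of 30% and 5%, unweighted), and their log2, after addition of 1 TPM as the pseudocount, went into limma 3.58.1 (R 4.3.3), in 1 fit of all groups with 16 residual degrees of freedom and eBayes with a trend. This pseudocount understates the change of low genes. Genes above 1 TPM in at least 3 libraries were tested, and two-sided p-values, with a Benjamini-Hochberg adjustment across these 13661 genes, were called under 0.05. Folds are ratios of mean TPM. There were 15 comparisons. Groups and replicate numbers came from the sample titles. Every chemokine gene was named, and nearest genes by correlation were named for Cxcl1, Cxcl9, Cxcl10, Cxcl14, Cxcl16 and Pf4. So were the 3 tested genes of each list with the highest mean TPM. Other genes named from the lists were chosen after their values were seen. The chemokine genes, the lists and the tests were chosen with earlier results of these data known. The values of 1 gene are not reported here. The fit was tested on simulated data. The main fit held no replicate term. Same-numbered libraries correlated across genes (r over 0.1 for every pair) in WT CM against media and in KEAP1 KO CM against WT CM. They also did so for CDDO-Me against vehicle in media and in NRF2 KO CM (r from 0.14 to 0.72 over these comparisons). For these, calls that changed with the replicate number as a block are also given. In the other pairs of groups compared, same-numbered r was also above 0. Its lowest value there was 0.062 and its means were 0.14 to 0.29, so those groups are not shown to be unpaired. The block called 1734 rather than 1003 of all genes for WT CM against media, and 4633 rather than 3798 for CDDO-Me in WT CM. In NRF2 KO CM libraries 1 and 2 also correlated across numbers (r of 0.59 and 0.47). Pairing by number and a difference of library 3 cannot be told apart there. Alternatives were median-of-ratios scaling, no scaling, other filters, a pseudocount of 0.1, no trend, array weights, a replicate block, the compared groups alone, and libraries left out. Promoters came from RefSeq, and positions and transcripts from GENCODE vM39. Sequence words and motifs were counted, and figures drawn, with Python 3.11.15 and matplotlib 3.10.9.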

Additional observations from a re-analysis of the deposited data

Results flagged for a closer look

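For 6 of the chemokine genes CDDO-Me had unequal effects in different media by the interaction test of limma on the log2(TPM + 1) scale. The effect in WT CM against that in media differed by 10.64 for Cxcl9, 9.36 for Cxcl10, 2.49 for Cxcl16 and -3.52 for Pf4. The effect in WT CM against that in NRF2 KO CM differed by 10.62 for Cxcl9, 9.18 for Cxcl10, 2.16 for Cxcl16 and -3.40 for Pf4. The effect in KEAP1 KO CM against that in media differed by 10.38 for Cxcl9, 10.16 for Cxcl10, 2.47 for Cxcl16, -3.68 for Pf4, 2.35 for Cxcl2 and 1.70 for Cxcl1. The adjusted p was at most 2.4e-05 for Cxcl9, Cxcl10, Cxcl16 and Pf4, and 0.032 and 0.049 for Cxcl2 and Cxcl1, whose calls were lost in 7 and 10 of 12 fits with 1 library left out. Groups of 3 libraries are too small to test a single library as an outlier.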

How the results depend on the processing

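No called difference of a chemokine gene changed sign under any alternative run. Of 2284 alternative values of single genes, 59 lost and 28 gained a call, and 95 others changed sign with no call under either setting. Cxcl9, Cxcl10, Cxcl16, Cxcl14 and Pf4 kept their calls with CDDO-Me in WT CM and KEAP1 KO CM, and the first 3 and Pf4 in the interactions, under every alternative that tested them. With array weights, the number of chemokine genes called was 4 for WT CM against NRF2 KO CM, KEAP1 KO CM against NRF2 KO CM, and CDDO-Me in media and in NRF2 KO CM, 1 for NRF2 KO CM against media and KEAP1 KO CM against WT CM, and 4 and 6 for WT CM and KEAP1 KO CM against media, where 4126 and 5024 of all genes were called in place of 1003 and 1087. With the compared groups alone it was 2 for CDDO-Me in media and 1 for CDDO-Me in NRF2 KO CM and for WT CM and KEAP1 KO CM against NRF2 KO CM. With the replicate block it was 2 for CDDO-Me in media and 1 (Pf4) for NRF2 KO CM against media. In the comparisons where every same-numbered pair had r over 0.1, the block changed no other call than those of Cxcl16 and Pf4 given above. In the other comparisons, it added Cxcl3 for KEAP1 KO CM against media and against NRF2 KO CM. For CDDO-Me in media it was 2 without scaling and 2 with a pseudocount of 0.1. Without the 2 libraries with few genes it was 1 for CDDO-Me in NRF2 KO CM. With each library left out in turn it ran from 1 to 3 for KEAP1 KO CM against media and from 1 to 3 for KEAP1 KO CM against NRF2 KO CM. Without scaling the median over all genes moved to -0.12 with CDDO-Me in WT CM and to -0.17 in KEAP1 KO CM. With KEAP1 KO CM/CDDO-Me library 1 left out, a choice made after seeing the data, 5 rather than 8 NF-kB and mRNA decay genes were called with CDDO-Me in KEAP1 KO CM. The cause of these shifts was not tested. Depth is unknown, and Cxcl2, Cxcl3 and Cxcl11, near 1 TPM or less in most groups, are measured least well.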
